A study of Mus musculus with 6 samples.

Results

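Lipid droplet coat proteins are the proteins on, or at the birth site of, the lipid droplet of a fat cell. Their 10 genes (Plin1, Plin2, Plin3, Plin4, Plin5, Cidea, Cidec, Hilpda, Fitm1 and Fitm2) were chosen by name, and all 10 were found among the 28890 RefSeq transcript rows of the deposited table, which name 22466 genes. They had 13 rows there, and where a gene had several rows, the one with the highest mean over all cultures stood for it. Of the 10 genes, 9 reached the minimum mean of 0.5 RPKM (read numbers scaled to transcript length and library size) and were compared between genotypes, while Fitm1 did not.

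The study compared primary brown adipocytes of wildtype (WT) mice with those of mice lacking UCP1, the uncoupling protein of brown fat mitochondria. For each genotype 3 cultures were sequenced, numbered 10, 11 and 12 for WT and 13, 14 and 15 for Ucp1-KO. All came from interscapular brown adipose tissue of male 129SvEvS1 mice aged 5 to 6 weeks, and all were induced for 2 d and then differentiated for 7 d with insulin, T3 and rosiglitazone, an agonist of PPARγ. The RNA was taken from fully differentiated cells, and no treatment separated the cultures other than genotype. The knockout locus still makes a remnant transcript. Nothing in the labels says whether the cultures came from separate animals, so the p-values measure the spread between these cultures, which may be technical.

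A lipid droplet is a core of triglyceride under a single layer of phospholipid. The perilipins (Plin genes) cover this surface and control the access of lipases, the enzymes that free fatty acids. CIDE proteins (Cidea, Cidec) sit where droplets touch and move lipid from the smaller to the larger one, HILPDA inhibits the lipase ATGL, and the FIT proteins (Fitm1, Fitm2) act in the endoplasmic reticulum where droplets bud. Brown adipocytes store their fat in many small droplets, which feed heat production upon adrenergic stimulation. Most of these genes are known targets of PPARγ, and Hilpda is known to be induced by low oxygen.

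No coat transcript passed the test between genotypes. Of 9 tested, 0 had an adjusted p under 0.05 (limma, Benjamini-Hochberg adjustment over all transcripts tested), which was also the outcome for all 16865 RefSeq transcripts (0%). An unadjusted p under 0.05 was found for 0 of the 9 and for 935 of all (5.54%). With limma-voom on the reads computed from the RPKM values, 0 of all transcripts passed and 919 had an unadjusted p under 0.05. On average 6 members were higher in Ucp1-KO and 3 were lower, with a median log2 fold change of 0.06 beside a median of -0.0016 over all transcripts tested. Without Ucp1-KO replicate 13, 4 members were higher and 5 lower (median -0.063). Over all 6 cultures, only Plin4 had values that did not overlap between genotypes. This was 1 of 9 members beside 11.2% of all transcripts in either direction and 5.15% lower in Ucp1-KO. In these bulk cultures, fewer cells of a type and less RNA per cell cannot be told apart.

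The library totals inferred from the RPKM values lay between 14989604 and 17727653 reads. The closest pair across genotypes was WT replicate 10 and Ucp1-KO replicate 13, with a chi-square of 14.4 per transcript between their reads, while it was 37.3 and 27.1 between WT replicate 10 and the other WT cultures. These 2 libraries stood on the same side of the rest for most coat transcripts, so the log2 fold change without both is given for each tested member. Ucp1 itself was at 1775, 981 and 1157 RPKM in WT and at 307, 409 and 398 RPKM in Ucp1-KO, 28.4% of the WT mean. With a log2 fold change of -1.78, the targeted gene too missed the threshold (limma, adjusted p = 0.868). A member that missed it is thus not shown to be equal in both genotypes. Of 21 adipocyte markers 20 reached the minimum, 16 of them higher and 4 lower on average in Ucp1-KO (median log2 fold change 0.13), and Lep (leptin) was between 0.102 and 0.515 RPKM. The sum of 20 of them, without Ucp1, lay between 31280 and 34680 RPKM, most of it Fabp4, the fatty acid-binding protein of adipocytes (26400 to 29310 RPKM). Of the brown fat markers other than Ucp1, Cox7a1, a cytochrome c oxidase subunit, was the most abundant (507 to 743 RPKM) and Dio2, which activates thyroid hormone, the least (0.866 to 1.56 RPKM). The summed RPKM of 14 stromal markers lay between 1094 and 2406 in WT and between 993 and 1534 in Ucp1-KO. All 11 of them that were tested had a log2 fold change below 0 (median -0.44), beside 8496 of all 16865 transcripts. Without WT replicate 11, 5 of the 11 were higher and 6 lower in Ucp1-KO (median -0.06). The sum of 10 macrophage markers lay between 77.8 and 262 in WT and between 47.3 and 1059 in Ucp1-KO, with the highest value of each of the 10 in Ucp1-KO replicate 14. The sum of 7 endothelial markers lay between 2.93 and 34.9 in WT and between 5.88 and 16.4 in Ucp1-KO, and that of 17 muscle markers between 14.01 and 21.3 in WT and between 11.9 and 42.6 in Ucp1-KO. No stromal, macrophage or endothelial marker was at 0 in all cultures, and of the muscle markers Pax7 was. The part of these differences in the levels of the coat transcripts was not tested.

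**Figure D1:**
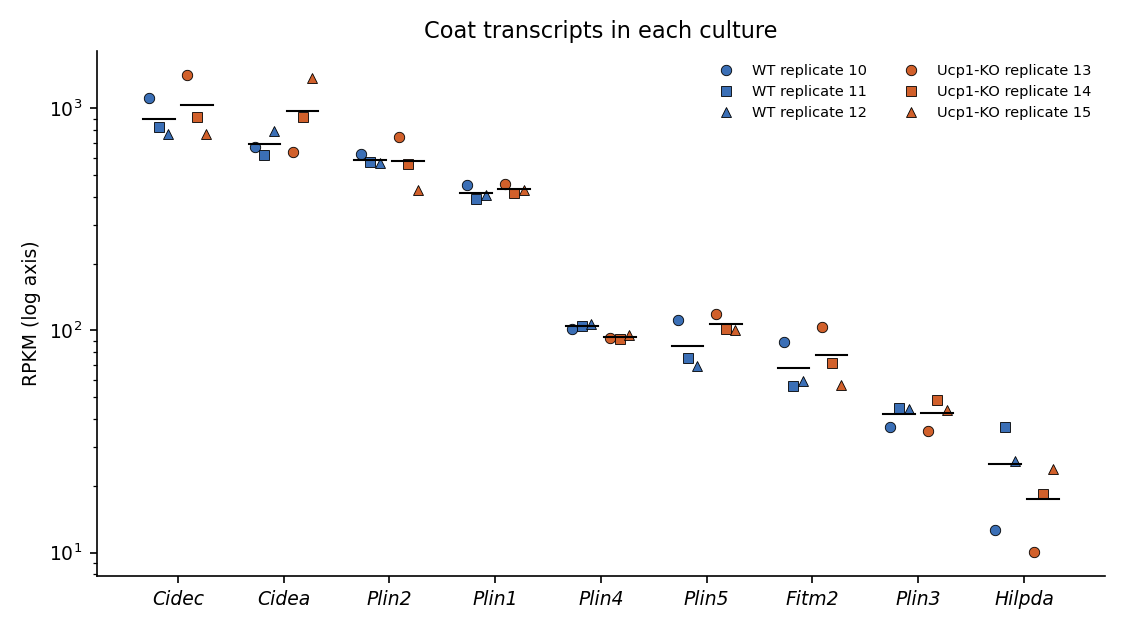
RPKM of 9 coat transcripts (log axis) in each of 3 WT and 3 Ucp1-KO cultures, with horizontal lines at the means and a marker shape for each replicate. Genotypes overlap for all but Plin4, and the circles (WT replicate 10 and Ucp1-KO replicate 13) lie together at the upper end for Cidec, Fitm2, Plin2 and Plin5 and at the lower end for Plin3 and Hilpda. Fitm1, with at most 2 reads per culture, is not drawn.

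The levels spanned a wide range. RPKM is scaled by transcript length, so it can be compared between genes. In WT, the order of the means was Cidec (900 RPKM), Cidea (692 RPKM), Plin2 (588 RPKM), Plin1 (416 RPKM), Plin4 (105 RPKM), Plin5 (85.2 RPKM), Fitm2 (68.0 RPKM), Plin3 (41.9 RPKM), Hilpda (25.0 RPKM) and Fitm1 (0.0626 RPKM). Cidec ranked between 17 and 44 among the 28890 RefSeq rows in the single cultures. Among neighbours in this order, Cidec and Cidea overlapped within WT, as did Cidea and Plin2, Plin4 and Plin5, and Plin5 and Fitm2. Plin2 stood above Plin1, Plin1 above Plin4, Fitm2 above Plin3, Plin3 above Hilpda and Hilpda above Fitm1 without overlap in WT. The order of Cidec and Cidea held in 4 of 6 cultures and was turned in WT replicate 12 and Ucp1-KO replicate 15.

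Plin1 encodes the main perilipin of adipocytes, which holds back the lipase co-activator ABHD5 until adrenergic stimulation. It lies on the minus strand of chromosome 7, 79720218 to 79732903 (GRCm38, GENCODE M21). Plin1 was at 451, 390 and 407 RPKM in WT replicates 10, 11 and 12 and at 456, 416 and 427 RPKM in Ucp1-KO replicates 13, 14 and 15. It was the steadiest of the more abundant members, and its genotypes overlapped. The difference was 0.06 (log2, Ucp1-KO minus WT, SE 0.10, n = 3 per genotype), with a 95% interval of the fold from 0.881 to 1.23 (limma, adjusted p = 0.94). With single cultures left out, the log2 fold change lay between 0.015 (without WT replicate 11) and 0.12 (without WT replicate 10), and it was 0.08 without both WT replicate 10 and Ucp1-KO replicate 13. The second RefSeq row of the gene, which shares most of its bases, gave the same ratio of 104%.

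Plin2 encodes a perilipin found on droplets of most cell types, and its protein is stable only when bound to lipid. The gene lies on the minus strand of chromosome 4, 86648386 to 86670060. Plin2 was at 624, 573 and 566 RPKM in WT and at 739, 563 and 431 RPKM in Ucp1-KO. The 3 WT values lay close to each other (CV 5.35%), between the extremes of the Ucp1-KO values (CV 26.8%). The means hardly differed (588 ± 31.5 and 578 ± 155 RPKM, SD, n = 3 each), with a log2 fold change of -0.06 (SE 0.20, limma adjusted p = 0.972), and the sign turned to 0.14 when Ucp1-KO replicate 15 was left out. The value was -0.25 without Ucp1-KO replicate 13 and -0.21 without both that culture and WT replicate 10.

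Plin3 encodes a cytosolic perilipin that binds young droplets. It lies on the minus strand of chromosome 17, 56277476 to 56292873. Plin3 was at 36.8, 44.7 and 44.2 RPKM in WT and at 35.4, 48.6 and 43.9 RPKM in Ucp1-KO. The lowest culture of each genotype (WT replicate 10 and Ucp1-KO replicate 13) was the highest for Plin2. The log2 fold change was 0.02 (SE 0.14, limma adjusted p = 0.989), and its sign changed with the culture left out. It was 0.06 without both of these cultures.

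Plin4 encodes a perilipin with a long repeat region that coats new droplets in adipocytes. It lies on the minus strand of chromosome 17, 56100591 to 56109803, next to Plin5. Plin4 was at 102, 105 and 107 RPKM in WT and at 92.6, 91.6 and 95.3 RPKM in Ucp1-KO. All Ucp1-KO values were below all WT values, and the spread within genotypes was the smallest of the members (CV 2.50% in WT and 2.04% in Ucp1-KO). The Ucp1-KO mean was 89.0% of WT, with a log2 fold change of -0.17 (SE 0.08, interval of the fold from 0.785 to 1.01). It did not pass the test (limma, unadjusted p = 0.0679, adjusted p = 0.868), and the exact two-sided permutation test gave p = 0.1, the smallest that 3 against 3 cultures allow. The 4 rows of the gene over all annotations, which share bases, were between 84.5% and 91.8% of WT, all without overlap. An exon of Hdgfl2 on the opposite strand overlaps Plin4, and the libraries do not mark the strand. Hdgfl2, listed by its older name Hdgfrp2, averaged 8.97 RPKM over the WT and 9.55 RPKM over the Ucp1-KO cultures. Without both WT replicate 10 and Ucp1-KO replicate 13, the log2 fold change was -0.18 (limma, adjusted p = 0.411).

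Plin5 encodes the perilipin of oxidative tissues, which tethers droplets to mitochondria. It lies on the minus strand of chromosome 17, 56111601 to 56117596. Plin5 was at 111, 74.9 and 69.2 RPKM in WT and at 119, 102 and 100.2 RPKM in Ucp1-KO. The 3 Ucp1-KO values lay above WT replicates 11 and 12, and WT replicate 10 lay among them. The Ucp1-KO mean was 125% of WT (log2 fold change 0.35, SE 0.19, limma unadjusted p = 0.103, adjusted p = 0.871), and the interval of the fold reached from 0.938 to 1.73. The log2 fold change was 0.22 without WT replicate 12, 0.56 without WT replicate 10 and 0.48 without both WT replicate 10 and Ucp1-KO replicate 13 (limma, adjusted p = 0.325 for the latter).

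The 5 perilipins together amounted to 1235 ± 77.7 RPKM for WT and 1254 ± 174 RPKM for Ucp1-KO (SD, n = 3 each, exact two-sided permutation test p = 0.8). Plin2 took 47.1%, 48.3% and 47.4% of this sum in WT and 51.3%, 46.1% and 39.3% in Ucp1-KO. Plin1 took between 32.8% and 34.1% in WT and between 31.6% and 38.9% in Ucp1-KO. In Ucp1-KO replicate 15, Plin1 and Plin2 were thus at nearly equal levels, with a ratio of Plin2 to Plin1 of 1.01, while it was between 1.35 and 1.62 in the other 5 cultures. The share of Plin5 was between 5.80% and 8.41% in WT and between 8.23% and 9.13% in Ucp1-KO, with overlap (exact two-sided permutation test p = 0.3). The exact two-sided permutation p of the 5 shares lay between 0.2 and 1, where 0.1 is the smallest that 3 against 3 cultures allow, so that no share could pass. The ratio of Plin4 to Plin1 was at 0.226, 0.269 and 0.264 in WT and at 0.203, 0.220 and 0.223 in Ucp1-KO, without overlap (exact two-sided permutation test p = 0.1). Plin4 by itself did not overlap either, so this ratio is not a separate result.

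**Figure D2:**
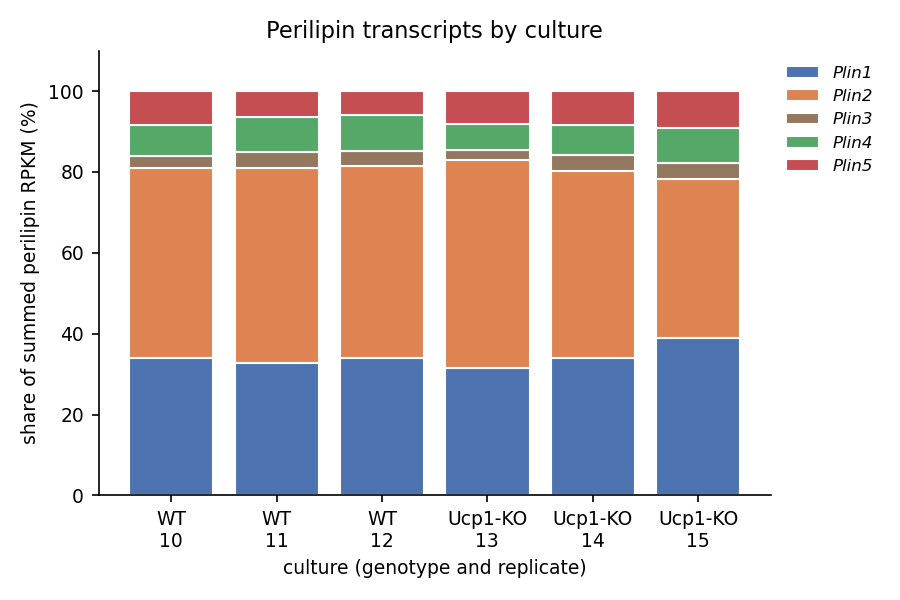
Share of each perilipin in the summed perilipin RPKM (%) of each culture, as stacked bars. Plin1 and Plin2 make up most of the sum in every culture, and the 3 WT bars are more alike than the 3 Ucp1-KO bars.

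The 2 CIDE genes had the highest WT means, although Plin2 lay above Cidea in Ucp1-KO replicate 13. Cidec encodes the protein that drives fusion into large droplets in white fat, and lies on the minus strand of chromosome 6, 113424634 to 113435760. Cidec was at 1108, 822 and 769 RPKM in WT and at 1419, 917 and 769 RPKM in Ucp1-KO. Each genotype had 1 culture above the other 2, the genotypes overlapped, and Ucp1-KO replicate 13 lay above all WT cultures. The means were 900 ± 182 RPKM for WT and 1035 ± 340 RPKM for Ucp1-KO (SD, n = 3 each), with a log2 fold change of 0.17 (SE 0.25, limma adjusted p = 0.933). It turned to -0.081 without Ucp1-KO replicate 13 and was 0.08 without both WT replicate 10 and Ucp1-KO replicate 13.

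Cidea encodes a CIDE protein that in mice is typical of brown fat. Cidea was at 669, 615 and 791 RPKM in WT and at 635, 917 and 1371 RPKM in Ucp1-KO. Ucp1-KO replicates 14 and 15 were above all WT cultures, and Ucp1-KO replicate 13 was between the WT values. The Ucp1-KO mean was 141% of WT, the largest difference upwards of the members (log2 fold change 0.43, SE 0.27, interval of the fold from 0.858 to 2.12, limma adjusted p = 0.876). It was 0.15 without Ucp1-KO replicate 15, below Plin5, Fitm2 and Cidec in the same setting (0.40, 0.37 and 0.36), and 0.41 without WT replicate 10, below Plin5 (0.56), so that this rank rested on these cultures. It was 0.68 without both WT replicate 10 and Ucp1-KO replicate 13 (limma, adjusted p = 0.354). The ratio of Cidea to Cidec varied from 0.448 in Ucp1-KO replicate 13 to 1.78 in Ucp1-KO replicate 15 and lay between 0.604 and 1.03 in WT (exact two-sided permutation test of the genotypes p = 0.7). The third CIDE gene, Cideb, known from liver, was between 2.74 and 8.83 RPKM.

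Hilpda encodes a small inhibitor of ATGL (gene Pnpla2), and lies on the plus strand of chromosome 6, 29272488 to 29275446. Hilpda was at 12.7, 36.6 and 25.8 RPKM in WT and at 10.1, 18.4 and 23.8 RPKM in Ucp1-KO. It varied most of the tested members, 3.63-fold between the lowest and the highest culture, and rested on between 150 and 563 reads per culture. The Ucp1-KO mean was 69.6% of WT, the largest difference downwards (log2 fold change -0.46, SE 0.43, interval of the fold from 0.360 to 1.47, limma adjusted p = 0.894). The log2 fold change was -0.13 without either WT replicate 11 or Ucp1-KO replicate 13, -0.86 without WT replicate 10 and -0.53 without both WT replicate 10 and Ucp1-KO replicate 13. Without Ucp1-KO replicate 13, Plin2 (-0.25) and Plin4 (-0.16) were below Hilpda, as was Plin4 without WT replicate 11 (-0.16), so that this rank rested on these cultures. G0s2, the other small inhibitor of ATGL, was at 777, 952 and 870 RPKM in WT and at 700, 980 and 1405 RPKM in Ucp1-KO. ATGL itself was between 662 and 825 RPKM, so that the level of Hilpda was between 0.0122 and 0.0460 of that of Pnpla2 and the level of G0s2 between 0.849 and 2.12.

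Fitm2, the FIT gene expressed in fat, lies on the minus strand of chromosome 2, 163466379 to 163472629. Fitm2 was at 88.6, 56.4 and 59.1 RPKM in WT and at 104, 71.6 and 56.6 RPKM in Ucp1-KO. As for Cidec, the highest culture of each genotype was WT replicate 10 and Ucp1-KO replicate 13, and the genotypes overlapped. The log2 fold change was 0.17 (SE 0.26, limma adjusted p = 0.934), and it turned to -0.063 without Ucp1-KO replicate 13. It was 0.14 without both WT replicate 10 and Ucp1-KO replicate 13. The antisense gene 2310001K24Rik overlaps an exon of Fitm2, and averaged 0.978 RPKM over the WT and 1.49 RPKM over the Ucp1-KO cultures. Fitm1, the FIT gene of muscle, lies on the plus strand of chromosome 14, 55575617 to 55576954. Fitm1 had 1, 0 and 2 reads in WT and 0, 1 and 0 reads in Ucp1-KO, all under the floor of 3 reads, which on this transcript was worth between 0.187 and 0.222 RPKM. It was thus not detectable at this depth, and the floor covers counting error only.

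**Figure D3:**
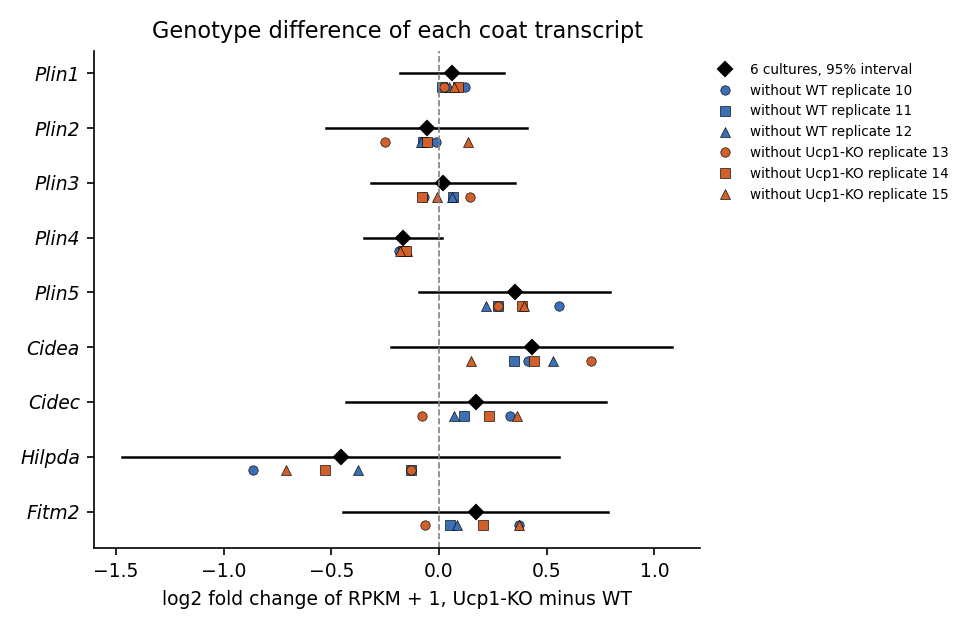
Log2 fold change of RPKM + 1 (Ucp1-KO minus WT) of 9 coat transcripts, with diamonds and lines for all 6 cultures and their 95% intervals, and coloured markers for the value without each culture in turn. All intervals include 0, Plin1, Plin4, Plin5, Cidea and Hilpda keep their sign without any single culture, and Plin2, Plin3, Cidec and Fitm2 do not.

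The coat transcripts varied between single cultures, and did so in groups. Cidec, Fitm2, Plin2, Plin1 and Plin5 were highest in Ucp1-KO replicate 13 and next highest in WT replicate 10, whereas Hilpda and Plin3 were lowest in these 2 cultures. Cidea followed neither group, with its highest value in Ucp1-KO replicate 15, where Plin2 and Cidec had their lowest. The ratio of Fitm2 to Cidec stayed between 0.0686 and 0.0799 in all 6 cultures, although Cidec varied 1.85-fold and Fitm2 1.84-fold. On log2(RPKM + 1), Pearson's r of Cidec and Fitm2 over the 6 cultures was 0.978 (exact permutation p = 0.00694, adjusted over 36 pairs of members p = 0.1), and Spearman's rho was 0.829 (exact permutation p = 0.0583, adjusted p = 0.191). Without WT replicate 10 and Ucp1-KO replicate 13, r was 0.871. For Hilpda and Fitm2, r was -0.956 (exact permutation p = 0.00417, adjusted p = 0.1), rho was -0.943 (exact permutation p = 0.0167, adjusted p = 0.191), and r was -0.981 without WT replicate 11 and Ucp1-KO replicate 13. The cultures left out here differ from those of the pairs with Cidec, so the values without them cannot be compared. For Cidec and Hilpda, r was -0.896 (exact permutation p = 0.0139, adjusted p = 0.125), rho was -0.771 (exact permutation p = 0.103, adjusted p = 0.309), and r was -0.454 without WT replicate 10 and Ucp1-KO replicate 13, so that this relation rested on these cultures. None of the 36 pairs passed after adjustment, while 10 had an unadjusted p of r under 0.05, and 3 cultures of a genotype are too few for a value within it.

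**Figure D4:**
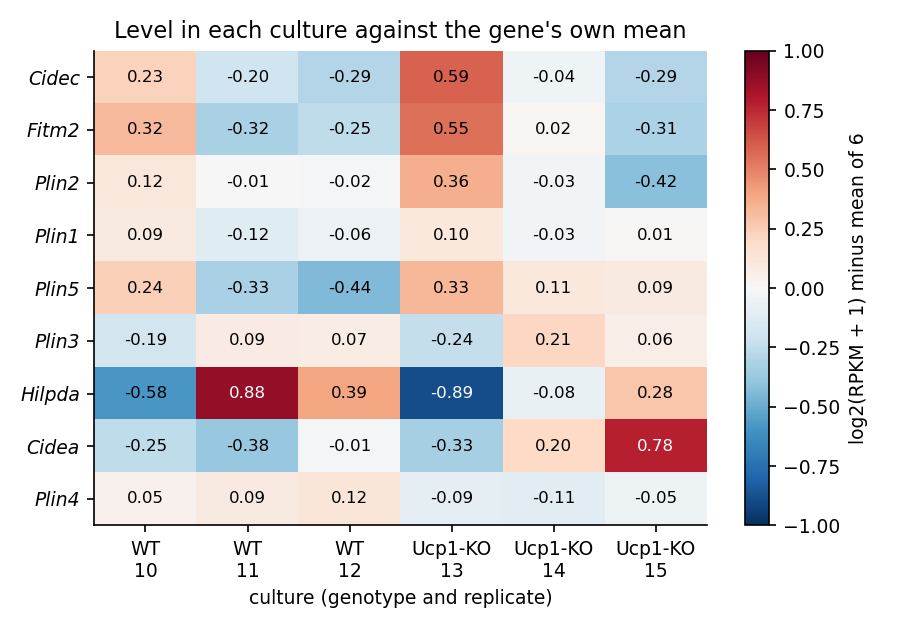
Log2(RPKM + 1) of each coat transcript in each culture minus the gene's mean over the 6 cultures (red above, blue below). The columns of WT replicate 10 and Ucp1-KO replicate 13 are red for Cidec, Fitm2, Plin2, Plin1 and Plin5 and blue for Plin3, Hilpda and Cidea, and Plin4 differs little in any column.

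Leaving out both of these libraries, which left 2 cultures per genotype, 6 of the 9 members (Plin1, Plin2, Plin4, Plin5, Cidea and Hilpda) no longer overlapped between genotypes. This was so for 49.4% of all transcripts tested, and 0 members and 0 of all transcripts had an adjusted p under 0.05 (limma), with 2302 of all at an unadjusted p under 0.05.

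The sequences just before the gene starts are shown for Cidec and Fitm2, whose levels kept an almost fixed ratio. They are the 120 bases before the start (for Cidec, the outer of its 2 starts) on the minus strand of chr6:113435761-113435880 and chr2:163472630-163472749 (RefSeq, GRCm38.p6).

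Cidec: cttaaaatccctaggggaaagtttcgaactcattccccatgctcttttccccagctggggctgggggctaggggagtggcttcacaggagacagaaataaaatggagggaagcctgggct

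Fitm2: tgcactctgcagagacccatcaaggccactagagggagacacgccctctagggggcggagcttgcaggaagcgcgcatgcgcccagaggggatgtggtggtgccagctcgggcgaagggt

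Entries were found for 9 of the 10 members (not for Cidea), with 2 starts each for Plin5, Cidec and Hilpda. The 250 bases before each start were searched on both strands for ACGTG, the core bound by hypoxia-inducible factors, for AGGTCA, the half-site bound by PPARγ and other nuclear receptors, and for TATAAA. Among 32851 entries of the table, 16.57% held ACGTG, 14.02% AGGTCA and 12.37% TATAAA. Of these 9 members, Hilpda alone held ACGTG, before 1 of its 2 starts, and Plin2 and Plin5 held AGGTCA, Plin5 before 1 of its 2 starts. The matches are shown in capitals within 30 bases, as a description of these letters only. They lie on the plus strand of chr6:29272570-29272599 for Hilpda, 43 to 39 bases before the start, and on the minus strand of chr4:86670260-86670289 for Plin2 and chr17:56117701-56117730 for Plin5, 218 to 213 and 170 to 165 bases before the start. In Plin2 the half-site reads on the opposite strand. Plin1, Plin3, Plin4, Cidec, Fitm1 and Fitm2 held none of these letters in this window.

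Hilpda: ggatggccagcggACGTGccccagggcgag

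Plin2: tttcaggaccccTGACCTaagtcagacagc

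Plin5: agtcctagtctgAGGTCAgccatggtgact

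The other genes of the droplet gave the same outcome as its coat. Of 36 listed partners, 35 reached the minimum, and Hsd17b13, a droplet enzyme of liver, was at most at 0.0482 RPKM. None of the 35 had an adjusted p under 0.05 (limma). An unadjusted p under 0.05 was found for 1 of them, beside 5.54% of all transcripts. The log2 fold changes reached from -0.43 to 0.45 with a median of 0.04, 24 higher and 11 lower in Ucp1-KO, beside -0.0016 over all transcripts tested. Without Ucp1-KO replicate 13, 15 were higher and 20 lower (median -0.014). Genotypes did not overlap for 2, both higher in Ucp1-KO, beside 11.2% of all transcripts. Neither count stood above its background.

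Of 6 genes of lipolysis, 5 were higher on average in Ucp1-KO. Without Ucp1-KO replicate 13, Abhd5 (log2 fold change -0.09), Lipe (-0.03) and Mgll (-0.16) turned lower. In that setting G0s2 (0.44) and Pnpla3 (0.44) stayed higher, and Pnpla2 stayed lower (-0.11). Pnpla3, a lipid hydrolase related to ATGL, was the partner with the unadjusted p under 0.05. Pnpla3 was at 63.3, 63.8 and 71.4 RPKM in WT and at 72.7, 89.0 and 90.7 RPKM in Ucp1-KO, without overlap (log2 fold change 0.34, SE 0.11, limma unadjusted p = 0.0219, adjusted p = 0.868). Abhd5, the activator of ATGL that perilipin 1 binds, was between 90.2 and 151 RPKM, and the ratio of Plin1 to Abhd5 was between 3.02 and 4.74. Both extremes of this ratio were Ucp1-KO cultures (replicates 13 and 15).

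Of 9 genes of triglyceride synthesis, 7 were higher on average in Ucp1-KO. Without Ucp1-KO replicate 13, Agpat2 (log2 fold change -0.01), Dgat2 (-0.12) and Acsl1 (-0.09) turned lower. In that setting Gpam (0.15), Gpat3 (0.06), Gpat4 (0.19) and Dgat1 (0.10) stayed higher. Dgat1, which catalyses the last step of triglyceride synthesis, was at 122, 117 and 126 RPKM in WT and at 127, 129 and 132 RPKM in Ucp1-KO, the other partner without overlap (log2 fold change 0.09, SE 0.08, limma adjusted p = 0.893). Acsl3, an acyl-CoA synthetase found on growing droplets, had the lowest fold change of the partners over all 6 cultures. Acsl3 was at 20.4, 26.9 and 29.9 RPKM in WT and at 12.9, 18.4 and 26.9 RPKM in Ucp1-KO (log2 fold change -0.43, SE 0.26, limma adjusted p = 0.876). It lay between -0.69 (without Ucp1-KO replicate 15) and -0.18 (without Ucp1-KO replicate 13, where Cavin1 was lower at -0.36). Of the genes of droplet biogenesis and size, 4 were higher and 5 lower. Clstn3, a calsyntenin, had the highest fold change over all 6 cultures (0.45, SE 0.29, limma adjusted p = 0.876), with 33.9, 18.8 and 16.6 RPKM in WT and 41.1, 26.1 and 26.1 RPKM in Ucp1-KO. It lay between 0.24 (without Ucp1-KO replicate 13, where G0s2 was highest at 0.44) and 0.75 (without WT replicate 10). Pnpla3 was above Clstn3 without WT replicate 12 (0.39 against 0.26), and Mgll was above it without Ucp1-KO replicate 15 (0.59 against 0.55). Cavin1, a caveolar coat protein, was at 339, 342 and 306 RPKM in WT and at 350, 293 and 223 RPKM in Ucp1-KO (log2 fold change -0.21, SE 0.17, limma adjusted p = 0.888). Cav1, the main caveolin of fat cells, had a log2 fold change of 0.30 (SE 0.20, limma adjusted p = 0.876). The 7 genes of droplet traffic and contact lay between -0.14 (Rab18, a droplet GTPase) and 0.03, and the 4 other droplet-resident genes between 0.04 and 0.23. Of the 35 partners, 18 had their highest value in Ucp1-KO replicate 13, as had 5 of the 9 members, and 16 had their lowest in Ucp1-KO replicate 15, as had 2 members.

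**Figure D5:**
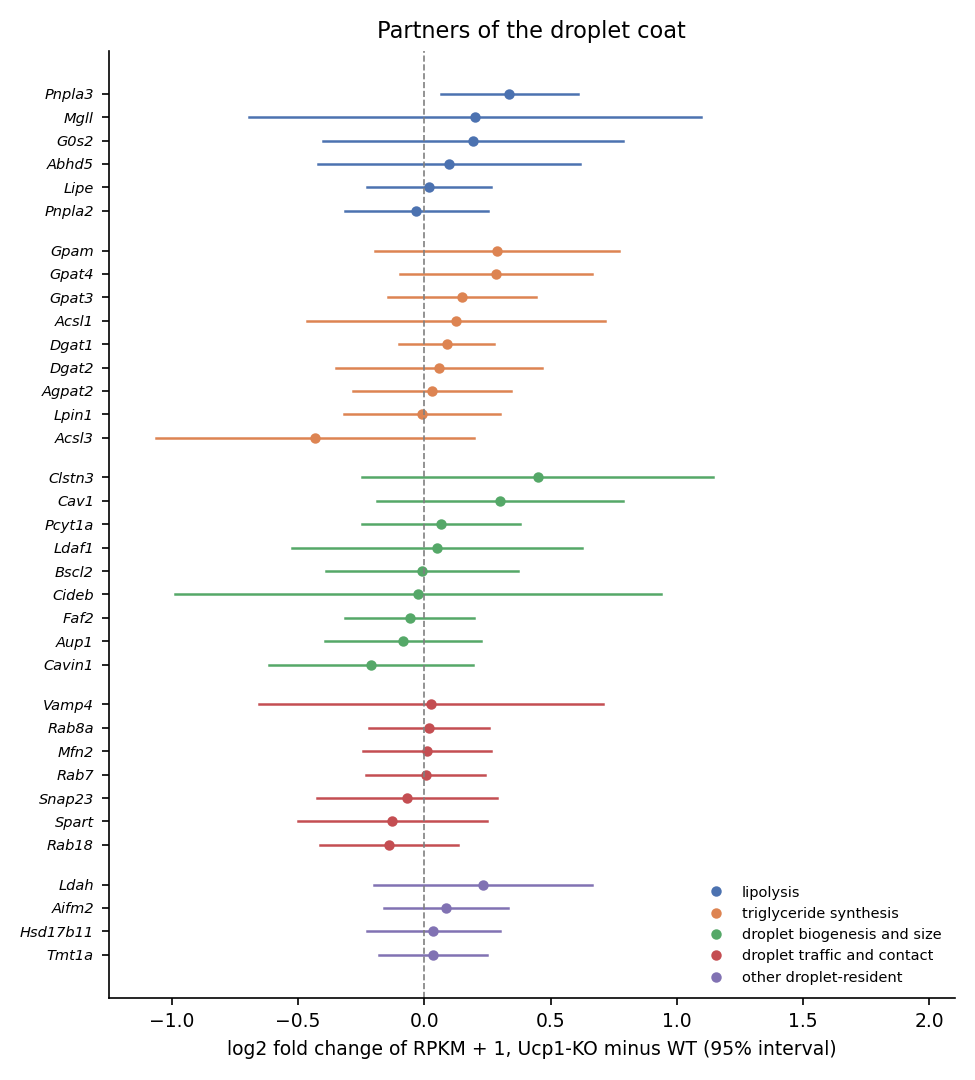
Log2 fold change of RPKM + 1 (Ucp1-KO minus WT) of 35 droplet partners by role, with 95% intervals as lines. The interval of Pnpla3 lies above 0, and those of the other 34 include 0.

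Transcription factors and coactivators known to act on coat genes showed no called difference either (0 of 11, limma). Pparg was between 119 and 128 RPKM in WT and between 126 and 143 RPKM in Ucp1-KO, with overlap (log2 fold change 0.14, SE 0.09, limma adjusted p = 0.876). Cebpa, a partner of PPARγ in fat cell differentiation, was at 131.1, 147.7 and 145.2 RPKM in WT and at 160.8, 174.2 and 148.1 RPKM in Ucp1-KO (log2 fold change 0.19, SE 0.10, limma adjusted p = 0.871). It narrowly missed overlap, as the only 1 of the 11, beside 11.2% of all transcripts. Ppargc1a, the coactivator of mitochondrial biogenesis, had the highest fold change of the 11 over all 6 cultures (0.38, SE 0.26, limma adjusted p = 0.876) and Ppard the lowest (-0.14, SE 0.12, limma adjusted p = 0.891), next to Cebpb (-0.10, limma adjusted p = 0.906). Ppargc1a lay between 0.13 (without WT replicate 11, where Cebpa was highest at 0.22) and 0.64 (without WT replicate 10). Ppara was above Ppargc1a without WT replicate 12 (0.40 against 0.38) and without Ucp1-KO replicate 13 (0.55 against 0.35). Cebpb was lowest without WT replicate 11, WT replicate 12 or Ucp1-KO replicate 13. Ppara, the PPAR of oxidative tissues, was at 38.9, 35.9 and 49.2 RPKM in WT and at 33.6, 54.8 and 66.3 RPKM in Ucp1-KO. As for Cidea, its 2 highest values were in Ucp1-KO replicates 14 and 15.

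Hilpda stood beside other genes known to respond to low oxygen. Of 12 such genes, 10 were lower and 2 higher on average in Ucp1-KO with a median log2 fold change of -0.31, 0 had an adjusted p under 0.05 and 2 an unadjusted one (limma). Without Ucp1-KO replicate 13, 8 were lower and 4 higher with a median of -0.06, and without Ucp1-KO replicate 15 all 12 were lower (median -0.49). Of all 16865 transcripts, 8369 were higher and 8496 lower, and 5.54% had an unadjusted p under 0.05. Their lowest value was in Ucp1-KO replicate 13 for 11 of the 12, as for Hilpda, and their highest in WT replicate 11 for 7, again as for Hilpda, in Ucp1-KO replicate 15 for 4 and in WT replicate 10 for 1. Car9, a carbonic anhydrase, was at 3.47, 13.2 and 7.43 RPKM in WT and at 1.45, 2.46 and 3.47 RPKM in Ucp1-KO (log2 fold change -1.27, SE 0.43, limma unadjusted p = 0.0207, adjusted p = 0.868). P4ha1, a collagen prolyl hydroxylase, was at 53.8, 79.3 and 62.5 RPKM in WT and at between 47.8 and 50.5 RPKM in Ucp1-KO, without overlap (log2 fold change -0.37, SE 0.14, limma unadjusted p = 0.0359, adjusted p = 0.868). Ndrg1, a stress-induced gene, was at 8.70, 34.9 and 22.8 RPKM in WT and at 5.34, 14.1 and 11.8 RPKM in Ucp1-KO (log2 fold change -0.92, limma adjusted p = 0.876). Vegfa, the angiogenic growth factor, and Ldha, the lactate dehydrogenase subunit, were the 2 with a higher mean in Ucp1-KO, with log2 fold changes of 0.03 and 0.02. The part of oxygen in these values was not measured. WT replicate 11 also held the highest value of 10 of the 11 tested stromal markers and of all 5 tested endothelial markers.

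The gene most like a member over the 6 cultures was sought among 10319 RefSeq transcripts that averaged 5 RPKM or more, by Pearson's r of log2(RPKM + 1), as a description. For Plin1 it was Gprc5b, an orphan receptor (r = 0.999), for Plin5 Rnf144a, a ubiquitin ligase (r = 0.995), and for Cidec Ddx39, an RNA helicase (r = 0.999). For Plin2 it was Fam63a (r = 0.999), for Plin3 Eif2s1, a translation initiation factor (r = 0.996), for Plin4 Zmynd11, a chromatin reader (r = 0.996), for Cidea Zfp280c (r = 0.995) and for Hilpda Atxn7l3, a subunit of a histone deubiquitinase (r = 0.999). With 6 cultures that fall apart as described, such values are frequent. Between 13 (Plin4) and 270 (Hilpda) transcripts had an r over 0.95 with a member.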

How the data were processed

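Single reads of 50 bases came from libraries that do not mark the strand. The authors deposited RPKM per transcript, from uniquely identified reads on annotated transcripts of the mouse genome (GRCm38). The submitters' processing notes name CASAVA and bcl2fastq. Each value column carried the name of its culture. As the deposited unit is RPKM and not counts, limma 3.58.1 in R 4.3.3 (empirical Bayes, intensity trend, no covariates) was run on log2(RPKM + 1), which understates changes of low transcripts. RefSeq transcripts averaging 0.5 RPKM or more entered, and the threshold of the Benjamini-Hochberg adjusted p was 0.05. Exact two-sided permutation tests used scipy 1.17.1 in Python 3.11.15.

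Library totals were inferred from the RPKM of annotated transcripts of known length. The length of each RefSeq transcript was then sought as the smallest at which all its values gave whole reads (within 0.02 reads plus rounding). Such a length was found for 16864 of the 16865 transcripts tested (99.99%). As the length was chosen to give whole reads, this share is not an independent check. These reads served for limma-voom and floors. Scripts were tested on simulated data.

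Members and gene lists were chosen with earlier results of these data known. Named by rule were the members, Ucp1, the gene most like each member, and of a list the 2 largest and 2 smallest fold changes and those with an unadjusted p under 0.05. Abhd5, G0s2, Pnpla2, Lipe, Mgll, Gpam, Gpat3, Gpat4, Agpat2, Dgat2, Acsl1, Cideb, Hsd17b13, Dgat1, Lep, Cox7a1, Dio2, Cav1, Rab18, Cebpa, Pparg, Fabp4, Pax7, Hdgfl2 and 2310001K24Rik were chosen after their values were seen. The other marker lists are given as sums and counts. The gene most like Fitm2 is not reported here. Proteins were not analysed here.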

Additional observations from a re-analysis of the deposited data

How the results depend on the processing

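All 9 tested members missed the threshold under every alternative (138 values, smallest adjusted p 0.325), and 0 droplet partners passed under any. The alternatives were 0.1 in place of 1 RPKM, other minima, 1 transcript per gene, all annotations, median-of-ratios scaling, no intensity trend, limma-voom on reads, other RefSeq rows and leaving out each culture, and, chosen after seeing the data, leaving out both WT replicate 10 and Ucp1-KO replicate 13. Signs turned in 6 values, each without 1 culture. Without single cultures, Plin2 ranged from -0.25 to 0.14 (the latter without Ucp1-KO replicate 15), Plin3 from -0.080 (without Ucp1-KO replicate 14) to 0.14, Cidec from -0.081 (without Ucp1-KO replicate 13) to 0.36 and Fitm2 from -0.063 (without Ucp1-KO replicate 13) to 0.37, and Plin3 was also at -0.070 without WT replicate 10 and at -0.0086 without Ucp1-KO replicate 15. Over all RefSeq transcripts, 0 were called in each setting except no minimum abundance, where 22 were called among 28890. The count at an unadjusted p under 0.05, 935, was 1456 with no minimum, 543 with a mean of at least 5 RPKM and 5193 over all annotations, where fewer or more transcripts were tested. It was between 317 (without WT replicate 11) and 1754 (without WT replicate 10) without single cultures, with 1542 without Ucp1-KO replicate 13, 602 without Ucp1-KO replicate 14 and 441 without WT replicate 12, and 2302 without both WT replicate 10 and Ucp1-KO replicate 13. The members without overlap were between 1 and 4 without single cultures. They were 4 without WT replicate 10 (32.8% of all transcripts), 3 without Ucp1-KO replicate 13 (27.8%) and 6 without both (49.4%), and the cause was not tested. Spearman's rho in place of Pearson's r kept the sign of the 3 pairs Cidec and Fitm2, Cidec and Hilpda, and Cidea and Cidec, and turned it in 4 of all 36 pairs, whose Pearson's r lay between -0.053 and 0.213. No paired analysis was run, because the genotypes share no replicate numbers. Fitm1, under the minimum, was not among the tested members, and what limits the calls of the other members was not tested.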
